A study of Mus musculus with 12 samples.

Results

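Gdf5 and 9 other genes known from the forming joint were followed in the limb buds of mouse embryos with a conditional deletion of Mettl14, whose protein works with METTL3 in the methyltransferase that places N6-methyladenosine (m6A) on RNA. The genes were taken by name, with earlier results of these data known. They were Gdf5, Gdf6, Wnt9a, Sulf1, Enpp2, Barx1, Erg, Osr1, Osr2 and Dcx, and all 10 were found among the 31723 genes of the expression table. Limb buds were collected at E12.5 from conditional knockout embryos (cKO, genotype Mettl14 flox/flox) and from heterozygous controls (cHet, genotype Mettl14 wt/flox). The controls thus carried 1 floxed allele too, and no group of wild-type limb buds was analysed here. Each genotype had 3 biological replicates, and each replicate gave an input library of total RNA and a library of RNA pulled down with an anti-m6A antibody, 12 libraries in all. The sources used here do not give the promoter that drives the Cre recombinase, the floxed exons or whether embryos were pooled.

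The joint interzone is the band of flattened, densely packed mesenchymal cells that appears where a cartilage rod of the limb will be split into separate skeletal elements. Its cells lose cartilage traits and later give rise to articular cartilage, ligaments and synovial lining. GDF5, a ligand of the BMP family that signals through BMPR1B and SMAD proteins, is the classical marker of these cells, and Wnt ligands of the interzone keep the cells from becoming chondrocytes. GDF5 also acts on the adjoining cartilage condensations, whose growth it promotes.

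In the input RNA, 6 of the 10 genes fell in cKO limb buds, 1 rose and 3 did not pass the test. Gdf5, Wnt9a, Sulf1, Enpp2, Barx1 and Osr1 fell, to between 47.2% and 79.0% of the cHet mean. Dcx rose 1.38-fold, and Gdf6, Erg and Osr2 did not pass. All 10 genes passed the filter of a mean of 1 FPKM (fragments scaled to transcript length and to the mapped fragments of the library) over the 6 input libraries. They were tested with limma among 13575 genes, and adjusted p-values under 0.05 were called. Of all genes tested, 36.2% were called, with 17.5% lower and 18.7% higher in cKO. Without cHet replicate 2, 3 of the 10 genes fell and none rose, and 20.4% of all genes were called. Without cKO replicate 2, 3 fell and 1 rose, and 22.3% of all genes were called. The median log2 change was -0.36 over the 10 genes and -0.00 over all genes tested. Without regard to sign, the median log2 change was 0.38 over the 10 genes and 0.21 over all genes tested.

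**Figure D1:**
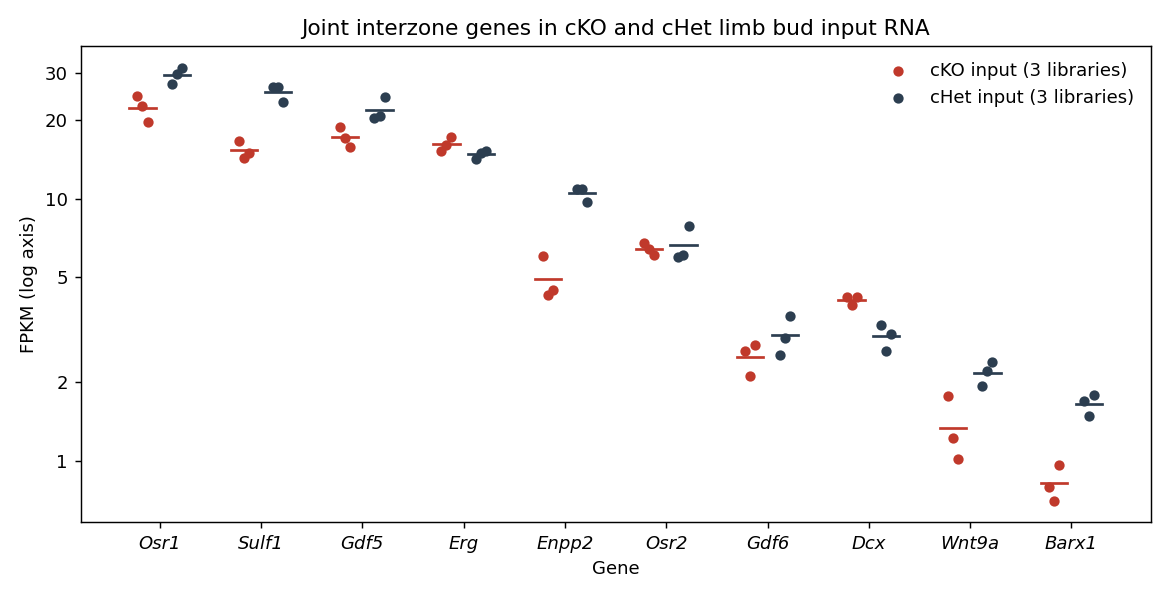
Expression of the 10 joint interzone genes in the 6 input libraries. Each point is 1 library on a log FPKM axis, cKO is plotted left of cHet for every gene, and bars mark the mean of 3. The cKO points lie below all cHet points for Gdf5, Wnt9a, Sulf1, Enpp2, Barx1 and Osr1, lie above them for Dcx, and overlap them for Gdf6, Erg and Osr2.

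Mettl14 itself had 2.67, 3.07 and 2.63 FPKM in the cKO libraries, against 5.08, 4.54 and 4.39 FPKM in the cHet libraries. It fell to 59.8% of the cHet mean (log2 change -0.58, adjusted p = 0.00289), and the genotypes did not overlap. The sums of the FPKM columns did not overlap either, at 237288 to 255907 in cKO and 261691 to 275299 in cHet. FPKM values carry no counts, so the depth behind each value is unknown. Chondrocyte markers (Sox9, Col2a1, Acan, Matn1 and Col9a1) summed to 93.6 to 107 FPKM in cKO and 148 to 162 FPKM in cHet, and 4 of 5 fell. Limb mesenchyme markers (Prrx1, Prrx2, Twist1, Msx1 and Lhx9) summed to 242 to 270 FPKM in cKO and 197 to 204 FPKM in cHet, and 3 of 5 rose. Muscle markers (Myod1, Myog, Myf5 and Actc1) summed to 203 to 329 FPKM in cKO and 348 to 377 FPKM in cHet, and 3 of 4 fell. No muscle marker was called without cHet replicate 2, and 1 was without cKO replicate 2 or cKO replicate 3. None of these markers was listed at 0, and their part in the changes of the joint genes was not tested. In whole limb buds, fewer cells of a type and less RNA of a gene per cell cannot be told apart.

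The joint genes spanned a wide range of levels. In cKO limb buds Osr1 was highest at 19.5 to 24.5 FPKM, followed by Gdf5 (15.7 to 18.8), Erg (15.2 to 17.2) and Sulf1 (14.3 to 16.6), and the last 3 overlapped each other. In cHet limb buds the order was Osr1 (27.4 to 31.6 FPKM), Sulf1 (23.4 to 26.7), Gdf5 (20.3 to 24.3), Erg (14.2 to 15.2), Enpp2 (9.71 to 10.9) and Osr2 (5.97 to 7.84). Gdf6 (2.52 to 3.57), Dcx (2.63 to 3.28), Wnt9a (1.93 to 2.37) and Barx1 (1.48 to 1.78) were the lowest of the 10 in cHet. Among neighbours in the cHet order, the ranges of Sulf1 and Gdf5 overlapped, as did those of Gdf6 and Dcx, and all others were apart. FPKM is a level per transcript length, so these levels can be set side by side.

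Promoter windows of RefSeq (assembly GRCm38.p6, 300 bases per gene start) were found for 4 of the 10 genes, Wnt9a, Barx1, Erg and Dcx. Those of the called genes, 2 that fell and 1 that rose, are shown for their base composition. Each line gives the bases of the window that lie upstream of the first start in RefSeq or the authors' table (59306849 for Wnt9a, 48662998 for Barx1 and 143933396 for Dcx), 5′ to 3′ on the strand of the gene, with every CG pair in capitals. Wnt9a covers chr11:59306680-59306848 on the plus strand, Barx1 chr13:48662786-48662997 on the plus strand, and Dcx chrX:143933397-143933469 on the minus strand.
Wnt9a: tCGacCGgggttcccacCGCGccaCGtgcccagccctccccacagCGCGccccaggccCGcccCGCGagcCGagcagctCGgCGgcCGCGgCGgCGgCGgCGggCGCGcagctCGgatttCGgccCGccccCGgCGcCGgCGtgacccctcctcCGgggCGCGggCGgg
Barx1: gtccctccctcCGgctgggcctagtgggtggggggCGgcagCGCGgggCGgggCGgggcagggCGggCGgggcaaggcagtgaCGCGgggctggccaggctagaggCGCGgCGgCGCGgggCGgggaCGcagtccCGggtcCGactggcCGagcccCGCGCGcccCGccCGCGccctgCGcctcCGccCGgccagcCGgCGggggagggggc
Dcx: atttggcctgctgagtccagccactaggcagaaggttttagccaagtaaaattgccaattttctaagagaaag

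The Wnt9a and Barx1 windows are rich in CG pairs, and the Dcx stretch holds none. In the full window, G and C made up 83.3% of the bases for Wnt9a, 84.7% for Barx1 and 43.0% for the Dcx window shown, and CG pairs numbered 58, 50 and 3 in that order. The medians over 32544 windows of the table were 53.0% and 7 CG pairs. The 3 windows of Erg, which did not pass the test, stood at 50.3% with 16 CG pairs, 37.3% with 2 and 46.0% with 4. Whether base composition goes with the change in RNA was not tested. The RUNX core TGTGGT (16.7% of all windows), the TCF/LEF core CTTTGA (16% of all windows) and the SMAD element GTCTAGAC (0.215% of all windows), searched on both strands, were found in none of the 7 windows of the 4 genes. The letters TATAAA (13.6% of all windows, on either strand) were found in 1 of the Erg windows, on the strand opposite to the gene. On the strand of the gene, they were found at 1 site of Dcx, which lies in both of its overlapping windows. These are matches of letters in a short window and are no measure of binding.

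Of the ligands, Gdf5 and Wnt9a fell and Gdf6 did not pass. Gdf5 (ENSMUSG00000038259, chr2:155941023-155945367 on the minus strand of mm10) had 18.8, 17.02 and 15.7 FPKM in cKO, against 20.3, 20.7 and 24.3 FPKM in cHet. Every cKO library lay below every cHet library, although the highest cKO value and the lowest cHet value were close. The mean was 17.2 ± 1.57 FPKM in cKO and 21.8 ± 2.23 FPKM in cHet (SD, n = 3 each), 79.0% of cHet. The log2 change was -0.32 (SE 0.0944, 95% interval -0.55 to -0.10, limma adjusted p = 0.0363), and it exceeded that of 68.4% of all genes in size. The call held without cKO replicate 1 (limma adjusted p = 0.0340) or cHet replicate 1 (0.0420), and was lost when any other single library was left out. The adjusted p was 0.102 without cKO replicate 2, 0.107 without cKO replicate 3, 0.0758 without cHet replicate 2 and 0.0648 without cHet replicate 3. It was 0.195 when the FPKM columns were rescaled to the same sum and 0.0716 after quantile normalization.

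Wnt9a encodes a Wnt ligand of the interzone. It had 1.76, 1.22 and 1.01 FPKM in cKO, against 1.93, 2.21 and 2.37 FPKM in cHet. The genotypes did not overlap, and cKO replicate 1 came closest to the controls. It fell to 61.5% of the cHet mean (log2 change -0.45, SE 0.130, adjusted p = 0.0345). Without cKO replicate 2, cKO replicate 3, cHet replicate 2 or cHet replicate 3 the adjusted p was 0.105, 0.0896, 0.103 and 0.0806 in that order, and it was 0.0709 after rescaling to the same sum.

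Gdf6 is the closest measured relative of Gdf5 among the 10 genes and is known to act with it in joint formation. It had 2.62, 2.1 and 2.75 FPKM in cKO, against 2.52, 2.94 and 3.57 FPKM in cHet. The 2 genotypes overlapped. Its log2 change of -0.20 (95% interval -0.48 to 0.09, adjusted p = 0.236) did not pass, and the interval includes the estimate for Gdf5.

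The extracellular enzymes Enpp2 and Sulf1 had the largest changes of the 10 genes on the log2(FPKM + 1) scale, and both calls held under all 15 other settings tried. By the ratio of mean FPKM, Barx1 (49.7% of cHet) stood between Enpp2 (47.2%) and Sulf1 (59.8%). Sulf1 encodes a sulfatase that removes 6-O-sulfate groups from heparan sulfate outside the cell, which alters how the chains bind growth factors. It had 16.6, 14.3 and 14.95 FPKM in cKO, against 26.7, 26.7 and 23.4 FPKM in cHet. The genotypes were well apart. Sulf1 fell to 59.8% of cHet (log2 change -0.71, SE 0.0803, adjusted p = 0.00177), and its log2 change ranged from -0.77 to -0.58 over the settings.

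Enpp2 encodes autotaxin, the secreted enzyme that makes the signalling lipid lysophosphatidic acid (LPA). It had 6.03, 4.30 and 4.49 FPKM in cKO, against 10.9, 10.8 and 9.71 FPKM in cHet. No cKO library came near the controls. Enpp2 fell to 47.2% of cHet (log2 change -0.96, SE 0.116, adjusted p = 0.00204), a change greater in size than that of 98.0% of all genes tested. A gene on the opposite strand, Gm26684, overlaps Enpp2 over 823 bases, and the sources used here do not say whether counting used strand. Gm26684 had at most 0.0348 FPKM in cKO and 0.0341 FPKM in cHet.

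Among the transcription factors, Barx1 and Osr1 fell, and Erg and Osr2 did not pass. Barx1 encodes a homeobox factor of joint and stomach mesenchyme. It had 0.795, 0.705 and 0.963 FPKM in cKO, against 1.70, 1.48 and 1.78 FPKM in cHet. The cKO values were below 1 FPKM in all 3 libraries, so the gene passed the filter on low values only through its cHet level. Barx1 fell to 49.7% of cHet (log2 change -0.54, SE 0.0903, adjusted p = 0.00527) and was called under all 15 other settings. With a pseudocount of 1 the log2 change understates the ratio of so low a gene, and with 0.1 it was -0.93.

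Osr1 and Osr2 encode zinc finger factors related to Drosophila odd-skipped and are both expressed in developing synovial joints. Osr1 had 24.5, 22.6 and 19.5 FPKM in cKO, against 27.4, 29.9 and 31.6 FPKM in cHet. The genotypes did not overlap. Osr1 fell to 74.9% of cHet (log2 change -0.40, SE 0.0956, adjusted p = 0.0178). Its adjusted p was 0.0511 without cKO replicate 2, 0.0648 without cHet replicate 2, 0.0894 after rescaling to the same sum and 0.0618 after quantile normalization.

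Osr2 had 6.75, 6.42 and 6.11 FPKM in cKO, against 5.97, 6.09 and 7.84 FPKM in cHet. All 3 cKO libraries lay inside the cHet range. The log2 change was -0.03 (95% interval -0.27 to 0.21, adjusted p = 0.828), and its sign turned under 3 of the 15 other settings. Whether Osr1 and Osr2 differed in their change was not tested.

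Erg encodes an ETS factor found in the interzone and in articular cartilage, and also in endothelium. It had 15.2, 16.0 and 17.2 FPKM in cKO, against 14.2, 14.9 and 15.2 FPKM in cHet. The lowest cKO library and the highest cHet library were nearly equal, so the genotypes overlapped. Its log2 change of 0.12 (95% interval -0.03 to 0.27, adjusted p = 0.183) did not pass, and after rescaling to the same sum it did (log2 change 0.24, adjusted p = 0.0261, or 0.14 relative to the median of all genes under that scaling). Endothelial markers (Pecam1, Cdh5, Kdr, Tek, Emcn and Tie1) summed to 37.3 to 41.97 FPKM in cKO and 45.3 to 50.9 FPKM in cHet, where 2 of 6 fell and none rose, and 1 fell without cKO replicate 2 or cHet replicate 2.

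Dcx encodes doublecortin, a microtubule-binding protein best known from migrating neurons and also found in the joint interzone. It had 4.20, 3.92 and 4.21 FPKM in cKO, against 3.28, 2.63 and 3.05 FPKM in cHet. Every cKO library lay above every cHet library. Dcx rose 1.38-fold (log2 change 0.36, SE 0.0801, adjusted p = 0.0142), and without cHet replicate 2 the adjusted p was 0.0511. The neuronal markers Tubb3, Stmn2, Elavl3, Elavl4 and Snap25 summed to 5.77 to 7.26 FPKM in cKO and 5.11 to 5.995 FPKM in cHet, and none was listed at 0. Of these, Tubb3 rose to 149% of cHet and made up most of the sum. Stmn2, which missed the filter on low values, averaged 0.516 FPKM in cKO and 1.38 FPKM in cHet. The part of neurons in the Dcx change was not tested.

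**Figure D2:**
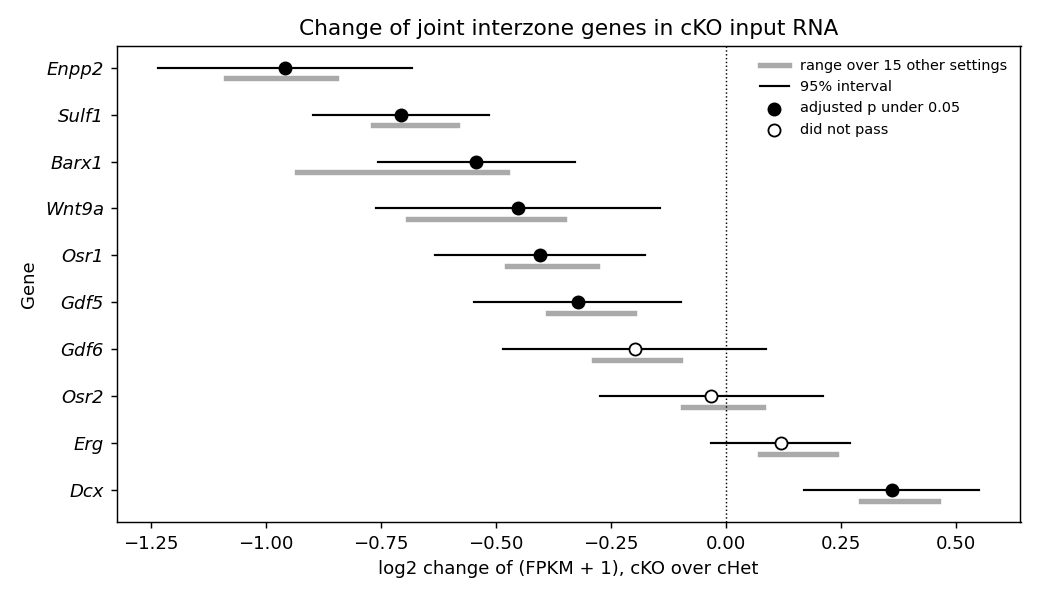
Log2 change of (FPKM + 1), cKO over cHet, for the 10 joint interzone genes, ordered by size. Points are the limma estimates, filled where the adjusted p was under 0.05, thin lines are 95% intervals, and grey bars span the estimates under 15 other settings. Enpp2, Sulf1 and Barx1 lie farthest to the left, Dcx is alone on the right among the filled points, and the grey bar of Osr2 crosses 0.

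The 6 genes that fell and the 1 that rose are also those whose libraries did not overlap between genotypes. Of all genes tested, 51.2% had no overlap, with 25.1% lower and 26% higher in cKO.

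Over the 6 libraries, Pearson's r with Gdf5 on the log2(FPKM + 1) scale was 0.97 for Osr1, 0.96 for Wnt9a, 0.84 for Enpp2 and 0.80 for Barx1. It was 0.79 for Sulf1, 0.71 for Gdf6, 0.61 for Osr2, -0.72 for Erg and -0.75 for Dcx. These values include the difference between genotypes. After each genotype was centred on its own mean, r was 0.92 for Osr2, 0.88 for Osr1, 0.85 for Wnt9a, 0.51 for Gdf6 and -0.29 for Erg. The same r was -0.20 for Sulf1, 0.27 for Enpp2, 0.01 for Barx1 and 0.07 for Dcx, while Sulf1 and Enpp2 had 0.89 with each other. Over all tested genes and the 6 libraries without centring, those closest to Gdf5 were Dhrs3 (r = 0.997), Cenpx (r = 0.996) and Tecr (r = 0.995). After centring they were Cenpx, Sfn and Airn, each with r = 0.996. These values describe 6 libraries that share depth, scaling and genotype, and many genes reach such an r over so few points.

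Further genes were read from 9 lists of the joint and of the pathways that the 10 genes belong to. The lists were chosen with earlier results of these data known, so their shares are no independent comparison with all genes. Together these held 85 tested genes, of which 30 rose (35.3%, against 18.7% of all genes tested), 15 fell (17.6%, against 17.5%) and 40 did not pass. The share called was near the 36.2% of all genes for other joint interzone genes (33.3%), BMP response genes (40%) and relatives of the 10 genes (42.9%). It was higher for GDF5 receptors and SMADs (46.2%), heparan sulfate enzymes (55.6%) and BMP and GDF antagonists (66.7%). Wnt receptors (72.7%), LPA receptors (75%) and Wnt feedback genes (75%) had the highest shares. Of 22 other joint interzone genes, 18 could be tested, of which 5 fell, 1 rose and 12 missed the threshold, and the median log2 change was -0.15. Nog, which encodes the BMP antagonist noggin, had 4.15, 3.94 and 3.60 FPKM in cKO, against 8.60, 7.31 and 8.02 FPKM in cHet, and fell to 48.8% (adjusted p = 0.000935). The matrix gene Tnc fell to 55.5% and the secreted Wnt modulator Sfrp2 to 63.8% of cHet, while the transcription factor gene Sox11 rose to 145%. The other 2 that fell, Col3a1 (72.2%) and the TGF-beta receptor gene Tgfbr2 (79.7%), are named after their values were seen. Without cHet replicate 2, 2 of the 18 fell and 1 rose. Thbs4 stood at 0.944 to 3.34 FPKM in cKO and 2.46 to 7.42 FPKM in cHet (adjusted p = 0.0730), and the matrix gene Vcan was at 100.5% of cHet (adjusted p = 0.901). Gdf7, Wnt16, Prg4 and Has3 were below the filter, and Prg4, the lubricin gene of mature joints, was listed at 0 in 2 of the cKO libraries and at 0.148 to 0.363 FPKM in cHet.

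Among the receptors and signal carriers of GDF5, 13 genes were tested. Called as higher were 5 and as lower 1, and the median log2 change was 0.17. Bmpr1b, the type I receptor that GDF5 prefers, was the 1 that fell, and it is named here after its values were seen. It had 4.11, 4.29 and 4.45 FPKM in cKO, against 6.09, 5.38 and 6.12 FPKM in cHet, 73.0% of cHet (log2 change -0.38, adjusted p = 0.00732). The inhibitory SMAD gene Smad7 had 9.25, 11.2 and 11.2 FPKM in cKO, against 4.19, 3.96 and 4.09 FPKM in cHet, and rose to 258%. Acvr2b, a type II receptor gene, rose to 243%, Ror2, a co-receptor gene, to 140% and Smad5 to 131% of cHet, and Smad1 (132%), named after its values were seen, was the remaining gene that rose, while Bmpr1a (98.3%) and Bmpr2 (103%) did not pass. After rescaling to the same sum, 9 of the 13 rose and 1 fell. That scaling moved the median of all genes to 0.10 log2 and called 3898 of all 13575 genes as higher.

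Extracellular antagonists of BMP and GDF ligands were read together with the membrane pseudoreceptor gene Bambi. Of 9 tested, 5 fell and 1 rose, while 3 missed the threshold, and the median log2 change was -0.37. Next to Nog, Fst (follistatin) fell to 52.9% of cHet. Fstl1 (74.4%) and Bmper (77.0%), named after their values were seen, fell as well. Bambi rose to 207%, and it is itself a known target of BMP signalling. Chrdl1 (72.9%, adjusted p = 0.0587) and Grem1 (80.8%, adjusted p = 0.0547) did not pass, although their libraries did not overlap.

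Of 10 BMP response genes, 3 rose and 1 fell, while 6 missed the threshold, and the median log2 change was 0.17. Msx2 had 25.5, 24.9 and 30.6 FPKM in cKO, against 10.1, 10.2 and 11.2 FPKM in cHet, and rose to 257%. Smad7, which stands on this list too, and Atoh8 (167%) were the other risers, and Id4 fell to 76.9%. Id1 (106.5%, adjusted p = 0.280) and Id2 (100.2%, adjusted p = 0.970), standard readouts of BMP signalling, did not pass. When the columns were rescaled to the same sum, 8 of these 10 genes rose and 1 fell. The median of all genes also moved up, to 0.10 log2, under that scaling.

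Of 7 relatives of the 10 genes that were tested, 2 rose, 1 fell and 4 did not pass. Barx2, the paralog of Barx1, fell to 66.3% of cHet (adjusted p = 0.0120). Fli1, the ETS relative of Erg, had 18.9, 22.7 and 22.4 FPKM in cKO, against 15.5, 14.6 and 12.49 FPKM in cHet, and rose to 150%, and the doublecortin-like gene Dclk2 rose to 149%. Sulf2, the other sulfatase of the same kind as Sulf1, had 67.2, 68.6 and 66.0 FPKM in cKO, against 57.2, 61.9 and 66.3 FPKM in cHet. It did not pass (108.9%, adjusted p = 0.198), and in both genotypes its level per length was above that of Sulf1. Dclk1 did not pass either (94.5%).

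Around Enpp2, 3 of 4 tested LPA receptor genes rose and none fell, with a median log2 change of 0.33. Lpar1 had 61.7, 61.1 and 66.9 FPKM in cKO, against 49.2, 46.2 and 44.6 FPKM in cHet, and rose to 135.5%. Lpar2 rose to 135.4% and Lpar6 to 128%, and Lpar4 (89.0%) did not pass. Without cHet replicate 2 only 1 of the 4 genes was called, as higher in cKO. Around Sulf1, 4 of 9 genes for enzymes that build heparan sulfate rose, 1 fell and 4 did not pass. Glce rose to 138%, Ndst1 to 134%, Hs6st1 to 128% and Ext2 to 120% of cHet. Ext1, named here after its values were seen, fell to 85.5%. Only 1 of the 9 was called without cKO replicate 3, 2 were without cKO replicate 2 or cHet replicate 2, and 3 were without cKO replicate 1 or cHet replicate 1. After rescaling to the same sum, which moved the median of all genes to 0.10 log2, 7 rose and none fell.

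Around Wnt9a, 6 of 11 Wnt receptor genes rose and 2 fell, while 3 missed the threshold, and the median log2 change was 0.29. Fzd10 rose to 216%, Fzd1 to 159% and Fzd4 to 152% of cHet, and Fzd8 fell to 70.0%. The other receptor gene that fell was Fzd9 (log2 change -0.41, adjusted p = 0.0303), named here after its values were seen. Fzd2 (109.2%) and Lrp5 (118%) did not pass. Without cKO replicate 2, cKO replicate 3 or cHet replicate 2, 5 of the 11 rose and none fell. After rescaling to the same sum, which moved the median of all genes to 0.10 log2, 8 rose and none fell. Of 8 Wnt feedback genes, which are induced by canonical Wnt signalling, 6 rose and none fell, while 2 missed the threshold, and the median log2 change was 0.39. Axin2 had 20.3, 21.7 and 24.2 FPKM in cKO, against 11.4, 11.5 and 14.7 FPKM in cHet, and rose to 176%. Znrf3 rose to 210%, Notum to 159% and Tcf7 to 154%, and Nkd1 (101.4%) and Nkd2 (98.9%) did not pass. Without cKO replicate 2 or cKO replicate 3, 3 of the 8 rose.

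**Figure D3:**
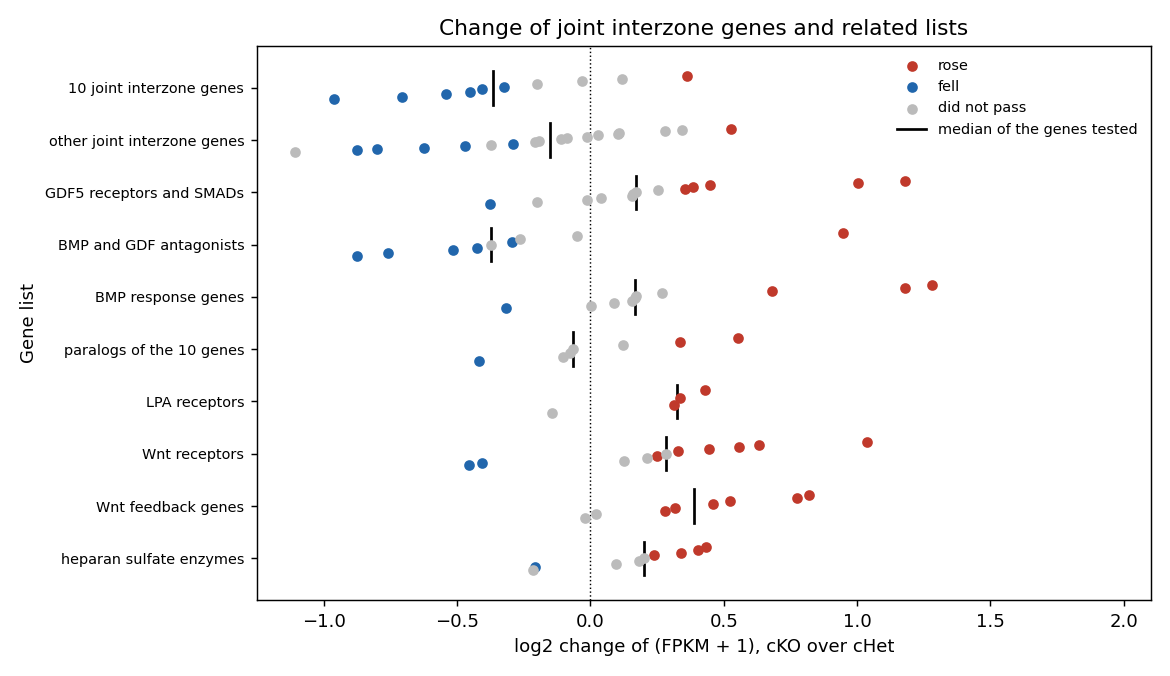
Log2 change of (FPKM + 1), cKO over cHet, of the 10 joint interzone genes and of 9 related gene lists. Each point is a gene tested, coloured by the limma call, and the black stroke is the median of the list. The strokes of the joint genes (-0.36), other joint genes (-0.15) and antagonists (-0.37) lie left of 0, and those of LPA receptors (0.33), Wnt receptors (0.29) and Wnt feedback genes (0.39) lie right of it.

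The m6A data consist of 1 deposited peak list for each genotype, with the authors' log2 enrichment per peak of immunoprecipitated over input RNA. There is no replicate of a list, so a difference between genotypes could not be set against a spread and was not tested. The lists held 46758 peaks in cKO and 41196 peaks in cHet. All 10 joint genes had at least 1 peak in both lists, as did 88.3% of all genes tested. The strongest peak of a gene was less enriched in cKO for 9 of the 10 genes, against 66.2% of the 15759 genes with peaks in both lists. The median difference of the strongest peak, cKO minus cHet, was -1.09 log2 units over the 10 genes and -0.29 over all genes of both lists. For 5 of the 10 genes (Gdf5, Gdf6, Barx1, Osr1 and Osr2) it was at least 1 log2 unit lower, against 18.2% of the genes of both lists. Of these 15759 genes, 11981 were among the genes tested on input RNA, as were all 10 joint genes. The strongest peaks of the lists need not be the same stretch, and for Wnt9a, Osr1 and Osr2 their annotation differed. The sources used here give neither the scaling of pulled-down RNA to input nor the way replicates were combined.

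**Figure D4:**
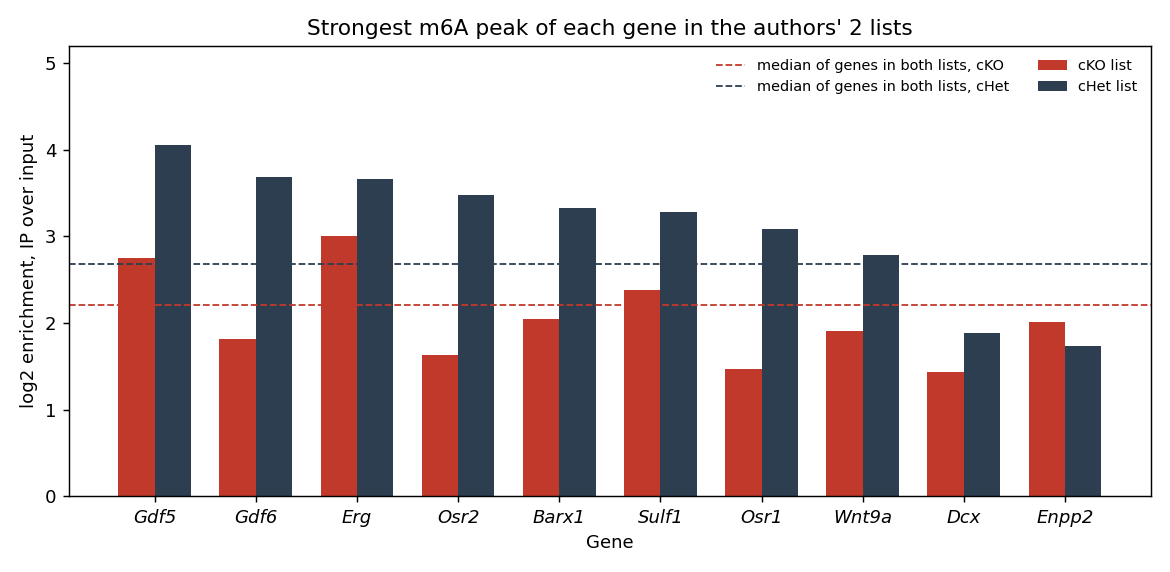
Log2 enrichment of the strongest m6A peak of each joint interzone gene in the authors' lists, 1 list per genotype and thus without error bars. The cKO value lies below the cHet value for 9 genes, by 1.88 log2 units for Gdf6, and above it for Enpp2.

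The strongest peak of Gdf5 stood at a log2 enrichment of 2.76 in cKO and 4.05 in cHet, which is above 78.3% of genes in the cKO list and 97.1% of genes in the cHet list. In cKO the gene held 2 peaks, of 3020 bases over the start codon (chr2:155942348-155945367, log2 enrichment 1.67) and of 1200 bases over the stop codon (chr2:155941023-155942222, log2 enrichment 2.76). In cHet a single peak covered the whole gene, introns included, over 4345 bases. Peak borders thus differed between the lists, and the enrichment values refer to stretches of unequal length.

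Gdf6 and Osr2 had the widest gaps between the lists. The strongest Gdf6 peak had a log2 enrichment of 1.81 in cKO and 3.69 in cHet, and both were annotated to the stop codon. They were unlike stretches, of 2125 bases in cKO (chr4:9859989-9862113) and 16417 bases in cHet (chr4:9844447-9860863). The same cKO peak also overlapped a 3′ UTR peak of cHet with a log2 enrichment of 1.84 (chr4:9861089-9862313). The strongest Osr2 peak had 1.64 in cKO, where it was annotated to an intron, and 3.48 in cHet, where it was exonic (chr15:35300383-35301382). Inside that cHet interval the cKO list held a peak of 200 bases with a log2 enrichment of 1.04. Neither gene passed the test on input RNA.

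For Osr1 the strongest cKO peak, in the 3′ UTR, had a log2 enrichment of 1.47 and lay inside the strongest cHet peak, over the stop codon, which had 3.08. The peaks at the 5′ end of Osr1 had 1.45 in cKO and 1.64 in cHet. For Barx1 the strongest peak had 2.05 in cKO and 3.33 in cHet. The Barx1 peak kept its place, over the stop codon and the end of the gene from chr13:48665259 on in both lists. Sulf1 had 2.38 in cKO and 3.28 in cHet, and Erg had 3.00 in cKO and 3.67 in cHet. The strongest Wnt9a peaks were different stretches, a 3′ UTR peak of 1.91 in cKO and a stop codon peak of 2.78 in cHet. Compared at the same place, the stop codon peak of Wnt9a had 1.80 in cKO and 2.78 in cHet, and the 3′ UTR peak had 1.91 in cKO and 1.93 in cHet. Dcx had weak peaks in both lists, with a strongest log2 enrichment of 1.44 in cKO and 1.89 in cHet, over the start codon. Enpp2 was the exception, with 2.01 in cKO and 1.74 in cHet for a short peak, of 250 bases in cKO and 225 bases in cHet, at the end of its 3′ UTR.

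The 10 genes held 28 peaks in cKO and 23 in cHet. With a log2 enrichment of at least 2 the order turned, with 7 peaks in cKO and 10 in cHet, and in the whole lists such peaks made up 30.5% in cKO and 45.2% in cHet. A count higher in cKO was found for 5 genes, against 36.5% of all genes with peaks in both lists, an equal count for 4 and a lower count for 1. By an overlap of at least 1 base on the same strand, 23 of the 28 cKO peaks met a cHet peak and 22 of the 23 cHet peaks met a cKO peak, against 79.6% of all cKO peaks and 87.4% of all cHet peaks. With an overlap of 50% of both peaks, 15 of the 28 cKO peaks and 15 of the 23 cHet peaks were shared, against 55.6% of all cKO peaks and 63.1% of all cHet peaks. Stop codon peaks were 5 of the 28 in cKO and 6 of the 23 in cHet. In the whole lists such peaks made up 15.2% in cKO and 18.9% in cHet. The 3′ UTR peaks were 9 of the 28 in cKO and 6 of the 23 in cHet, and in the whole lists 37.3% and 36.5%. Peaks of the 5′ UTR were 4 of the 28 in cKO and 5 of the 23 in cHet, and in the whole lists 4.89% and 4.96%. Start codon peaks were 4 of the 28 and 2 of the 23, against 9.83% and 8.25%. Exonic peaks were 3 of the 28 and 4 of the 23, against 19.2% and 17.4%. Intronic peaks were 3 of the 28 in cKO, all of them in Osr2, and 0 of the 23 in cHet. In the whole lists they made up 4.82% in cKO and 4.37% in cHet. The 3 intronic Osr2 peaks all lay inside longer cHet peaks that were annotated to the start codon or as exonic.

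**Figure D5:**
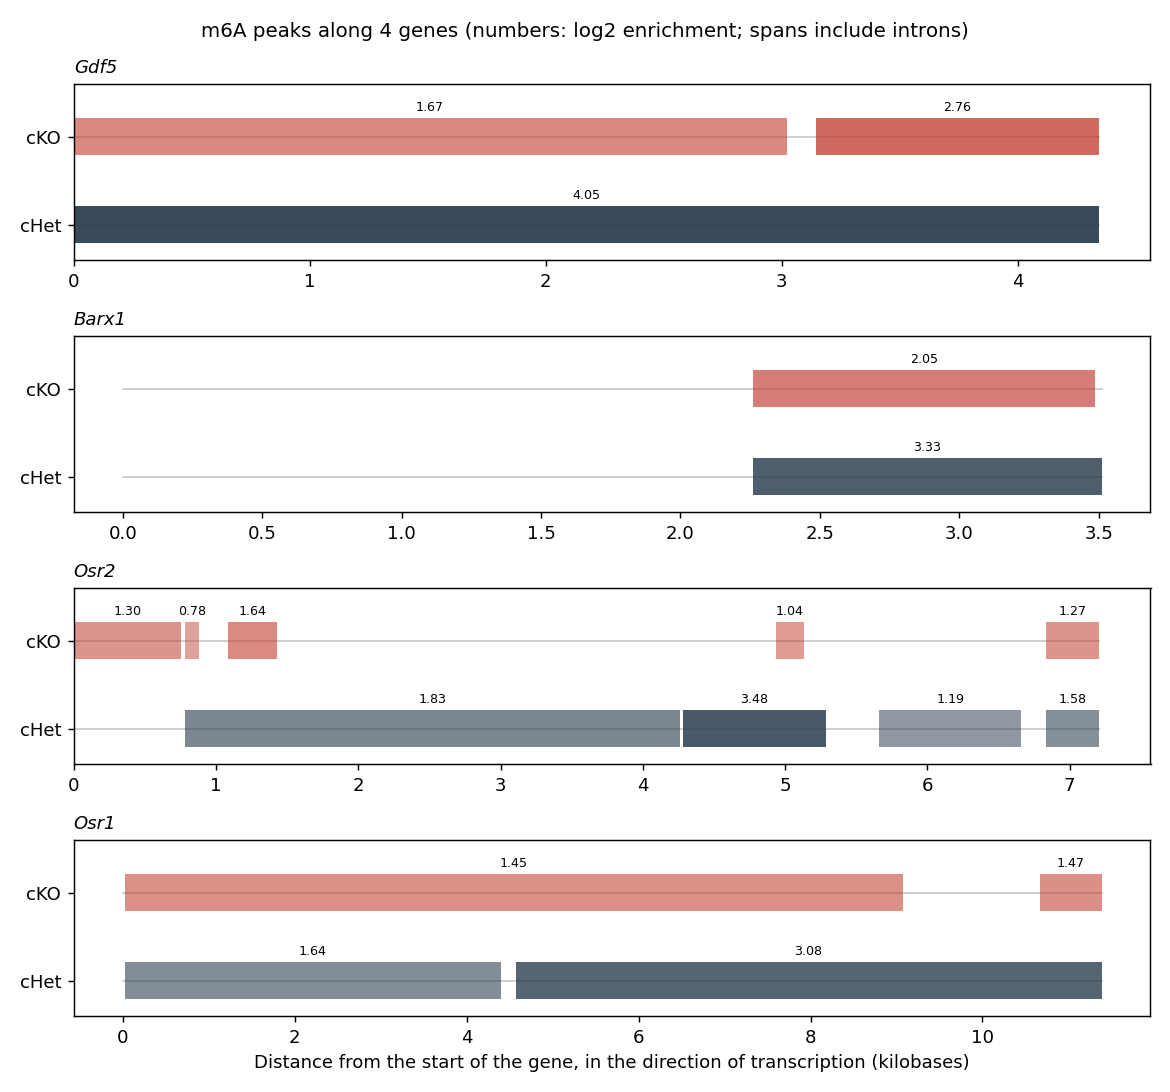
Extent of the m6A peaks along 4 genes, Gdf5, Barx1, Osr2 and Osr1, from the gene start (left) in kilobases, introns included, with the cKO list above the cHet list. Numbers and depth of shading give the authors' log2 enrichment. The single cHet peak of Gdf5 (4.05) covers the whole gene, where the cKO list has 2 peaks (1.67 and 2.76), and the Barx1 peak has nearly the same extent in both lists.

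Set beside the input RNA, Gdf5, Wnt9a, Sulf1, Barx1 and Osr1 fell and had a strongest peak less enriched in cKO. Such a lower peak was found for 66.2% of all genes with peaks in both lists. The gene with the greatest fall in RNA, Enpp2, was the gene whose strongest peak was more enriched in cKO. Gdf6 and Osr2, with the widest gaps in enrichment, did not pass on RNA. Dcx, which rose, and Erg, which did not pass, both had a strongest peak less enriched in cKO. The enrichment is a ratio to input, and no test joins the RNA and the peak lists.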

How the data were processed

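The 10 genes and the gene lists were chosen with earlier results of these data known. Libraries were made from TRIzol-extracted RNA with a NEBNext kit, per the labels' protocols. Reads were handled with fastp and HISAT2 on the build mm10, per the submitters' processing notes. For the counting tool, its annotation, strand setting and the peak caller, nothing is given in the sources used here. Per the file headers, the authors deposited FPKM of 31723 genes for the 6 input libraries. They also deposited 1 peak list per genotype, with the log2 enrichment and a p-value adjusted by the authors for each peak, per the file headers. Values per library of the immunoprecipitated samples were not used here.

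Input libraries were compared with limma 3.58.1 in R 4.3.3 (lmFit and eBayes with a trend, two-sided) on log2(FPKM + 1), with genotype as the only term. Testing covered the 13575 genes whose mean reached 1 FPKM, with Benjamini-Hochberg adjustment over all of them and a threshold of 0.05. Log2 changes are on this scale, which understates changes of low genes, and percentages and folds are ratios of mean FPKM. Low values showed no common step, since the most common ratio held 0.251% to 0.52% of low genes in 15 library pairs, so no reads were recovered and no count test was run. Libraries correlated across genes, which are not independent, at 0.976 to 0.989 within and 0.950 to 0.971 between genotypes. Same-numbered cKO and cHet libraries did not deviate together (r = -0.08, 0.04 and -0.20), so the numbers were not taken as pairs. With 3 libraries a genotype, these values cannot exclude a pairing. The labels call the replicates biological, and the p-values measure the spread between these libraries. Peak starts were turned to 1-based positions, and peaks count as shared if they overlap by at least 1 base on the same strand (bedtools 2.31.1 for whole lists). From each list, the text names up to 4 called genes by size of log2 change and up to 2 that did not pass, and says where another was added. A gene of the antagonist list is not reported here. For Gdf5, the 3 genes with the highest correlation are named. Alternatives were other pseudocounts (0.1 and 0.5), filters, scalings, no trend, a replicate block and each library left out, 15 in all.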

Additional observations from a re-analysis of the deposited data

How the results depend on the processing

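Sulf1, Enpp2 and Barx1 kept their direction and their call under all 15 alternatives. The call was lost under 8 alternatives for Gdf5 (adjusted p 0.034 to 0.195 over the 15), 7 for Wnt9a (0.0120 to 0.105), 5 for Osr1 (0.0174 to 0.0894) and 1 for Dcx (0.00624 to 0.0511). Osr2, which did not pass, changed sign when columns were rescaled to the same sum (log2 change 0.080), without cKO replicate 3 (0.00014) and without cHet replicate 3 (0.079), and its lowest value with 1 library left out was -0.093. Leaving out 1 library gave 2769 to 5121 called genes over the table, 3 to 7 of the 10 genes and 29 to 48 of the 85 list genes; cHet replicate 2 and cKO replicate 2 gave the lowest counts of all genes (2769 and 3025) and of the 10 genes (3 and 4). The cause was not tested. With a replicate block, 2889 genes were called and 4 of the 10 (3 fell, 1 rose). The limma adjusted p was then 0.106 for Gdf5, 0.0920 for Wnt9a and 0.0675 for Osr1. Whether libraries of the same number are pairs was not tested, and the main comparison did not take them as pairs. Rescaling to the same sum moved the median of all genes to 0.10 log2 and the share of calls higher in cKO to 73.7% of 5288, against 51.6% of 4912, and called 2 of the 10 genes as higher and 3 as lower. Relative to that median, the log2 changes of Erg, Osr2 and Gdf5 were 0.14, -0.02 and -0.31. Without a filter on low values 31723 genes were tested and 4299 called, with 4 of the 10 lower and 1 higher. With a log2 enrichment of at least 2, the 10 genes kept 7 peaks in cKO and 10 in cHet. With an overlap of 50% of both peaks, 15 of the cKO peaks were shared. Depth is unknown, so no limit from counts can be given, and 3 libraries a genotype limit the precision.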

Other observations

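Several peaks of the joint genes span far more than an exon, since the authors' intervals run across introns. The longest belonged to Erg, where a peak from the gene start inward covered 206411 bases in cKO (90.8% of the gene, log2 enrichment 1.25) and 176800 bases in cHet (77.7% of the gene, log2 enrichment 1.45). The more enriched Erg peak lay over the stop codon, with 2025 bases in cKO and 2125 bases in cHet, and reached the annotated end of the gene in both lists. Sulf1 held 4 matching peaks in the 2 lists and another, exonic one in cKO alone (chr1:12807912-12818414, log2 enrichment 0.89). Among the 4 matching Sulf1 peaks, the one in the coding region had a log2 enrichment of 2.37 in cKO and 2.17 in cHet, and the one at the 3′ UTR had 2.38 in cKO and 3.28 in cHet.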
